A study of Mus musculus with 46 samples.

Results

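PV basket cells are a class of GABAergic neurons of the cortex that express parvalbumin, as chandelier cells also can. Here they are the 127 cells whose names in the deposited table carry the PVC prefix, of 584 single cells in all. They came from mice of the cross Pv-iresCre; Ai14, in which Cre made under the parvalbumin gene switches on the Ai14 red fluorescent reporter, and were picked from all layers of frontal cortex. The labels divide them over 16 libraries and 4 animals, of which animals 7 (postnatal day 81) and 9 (day 83) are labelled male and animals 8 (day 58) and 10 (day 83) female. They were set beside 6 other interneuron types of the same study, each picked by its own driver cross, which add 457 cells and 30 libraries.

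The types with which PV basket cells were compared differed from them in more than the driver. Martinotti cells (Sst-Flp; CR-Cre; Ai65, female, day 35), interneuron-selective cells (Vip-Flp; CR-Cre; Ai65, female, day 32), CCK basket cells (Vip-Flp; CCK-Cre; Ai65, male, days 39 to 40) and long-projecting cells (Sst-Flp; Nos1-Cre; Ai65, male, days 28 to 29) were each marked by the overlap of a Flp and a Cre driver. Chandelier cells were marked with Nkx2.1-CreER and the Ai14 reporter, after tamoxifen on embryonic day 17.5, in upper layers (female, days 40 to 58, with 1 library labelled Ai15) and in deep layers (male, day 34). All PV basket libraries, and no others, were sequenced on 1 flow cell. Type, age, strain, layer and flow cell therefore cannot be told apart in any comparison of PV basket cells with another type.

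PV basket cells are known for narrow spikes at high rates and for synapses on the cell bodies of their targets. Potassium channels of the Kv3 and Kv1 families, sodium channels, a fast calcium sensor for transmitter release, a dense supply of mitochondria, neurofilament-rich axons and a perineuronal net of extracellular matrix are the textbook parts of this machinery. Chandelier cells, which contact the initial segment of the axon, share the fast-spiking physiology, whereas CCK basket cells contact cell bodies but spike more slowly.

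Each cell was tagged by a 9-base barcode, of which the last 2 bases were constant. The PV basket libraries in odd lanes used 1 set of 8 barcodes and those in even lanes another set of 8, with 0 in common. Below, 2 barcodes of each set are shown, because they are what separates the cells of paired libraries. Capitals mark the 7 variable bases.
Odd lanes, barcode A: AAGATCGac
Odd lanes, barcode B: CCTGACGac
Even lanes, barcode C: AGCAAGCac
Even lanes, barcode D: GTCTACGac
All 16 barcodes were also used in libraries of other types, where a library held 8 to 16 barcodes. Each PV library under an index in an odd lane, labelled with 1 sex, had a partner under the same index in the next lane, labelled with the other sex, and together the pair held 15 or 16 cells.

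Within the 8 pairs, PV basket libraries were nearly alike. The squared difference of their counts was 1.20 to 1.64 times that expected from counting alone (median 1.43), whereas libraries of different pairs differed by 7.70 to 27.4 times. Xist, the X-inactivation RNA, and the Y-linked gene Eif2s3y were both counted in 76.6% of the 64 PV basket cells labelled female and in 69.8% of the 63 labelled male, against at most 7.81% in any other type. Xist was at 48.2 to 160.2 CPM (counts scaled to a library total of 1000000 counts) in the PV libraries labelled female and at 76.2 to 162.0 CPM in those labelled male. Labelled sex is therefore not used here. The paired libraries were summed as 1 pool each, and the 4 pools labelled animals 7 and 8 and the 4 labelled animals 9 and 10 made the 2 PV basket replicates (n = 2, with 64 and 63 cells). Libraries of different pools differed by a median of 13.7 times counting noise within a replicate and 13.0 between the 2 replicates. These values do not set the 2 replicates apart. The other types had 14 replicates, 1 per labelled animal. The series' design text speaks of 4 animals, whereas the labels number 18, and animal 14, an upper chandelier replicate, is labelled day 58 in 1 library and day 40 in 2. The independence of all 16 replicates thus rests on the labels, and p-values measure only the spread between these samples. That spread is estimated over the replicates of all types together, of which only 2 are PV basket replicates.

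PV basket cells had 12044 to 693292 counts each (median 130761), their libraries 669418 to 3036495, and the replicates 12324142 and 8479610, within a range of 1203737 to 12324142 over all 16 replicates. Over the PV cells together, 3 counts correspond to 0.144 CPM, which is the level that a count of 0 allows. Within a library, the counts of PV cells differed by 1.03 to 1.36 times counting noise (median 1.14 over 16 libraries), close to the 1.02 to 1.62 of the 30 other libraries. Shares of cells that hold a gene are therefore not given beside the library means. Markers of non-neuronal and excitatory cells were low: over both replicates the 8 excitatory markers summed to 6.33 to 18.0 CPM, the 9 oligodendrocyte markers to 36.8 to 64.7, the 8 microglia markers to 6.41 to 15.4 and the 8 endothelial and mural markers to 27.5 to 43.9. The 8 astrocyte markers summed to 26.9 CPM in the replicate of animals 7 and 8 and 175 CPM in that of animals 9 and 10, with Gfap at 0 in both. None of the 34 tested members of these 5 lists passed the test against the other types. That test cannot detect RNA that the other types hold at like levels, so it gives no measure of such RNA.

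The 6 genes that mark PV basket cells were high in PV basket cells, as the label says. Each was compared by its level in CPM of a replicate, and by edgeR's quasi-likelihood test of PV basket cells against the mean of the other 6 types on the log scale, with Benjamini-Hochberg adjustment over 15533 genes and a threshold of 0.05. All 6 rose against the other types, where 3.89% of all genes passed in either direction (2.78% higher and 1.11% lower). Pvalb encodes the calcium buffer parvalbumin and is the gene that drives the reporter, so its level is no independent check. It was at 1088 CPM in animals 7 and 8 and 958 CPM in animals 9 and 10, with the 8 pools between 809 and 1310.4 CPM. The 14 other replicates ran from 0.123 to 518 CPM (median 3.54), and the highest of them were chandelier cells.

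**Figure D1:**
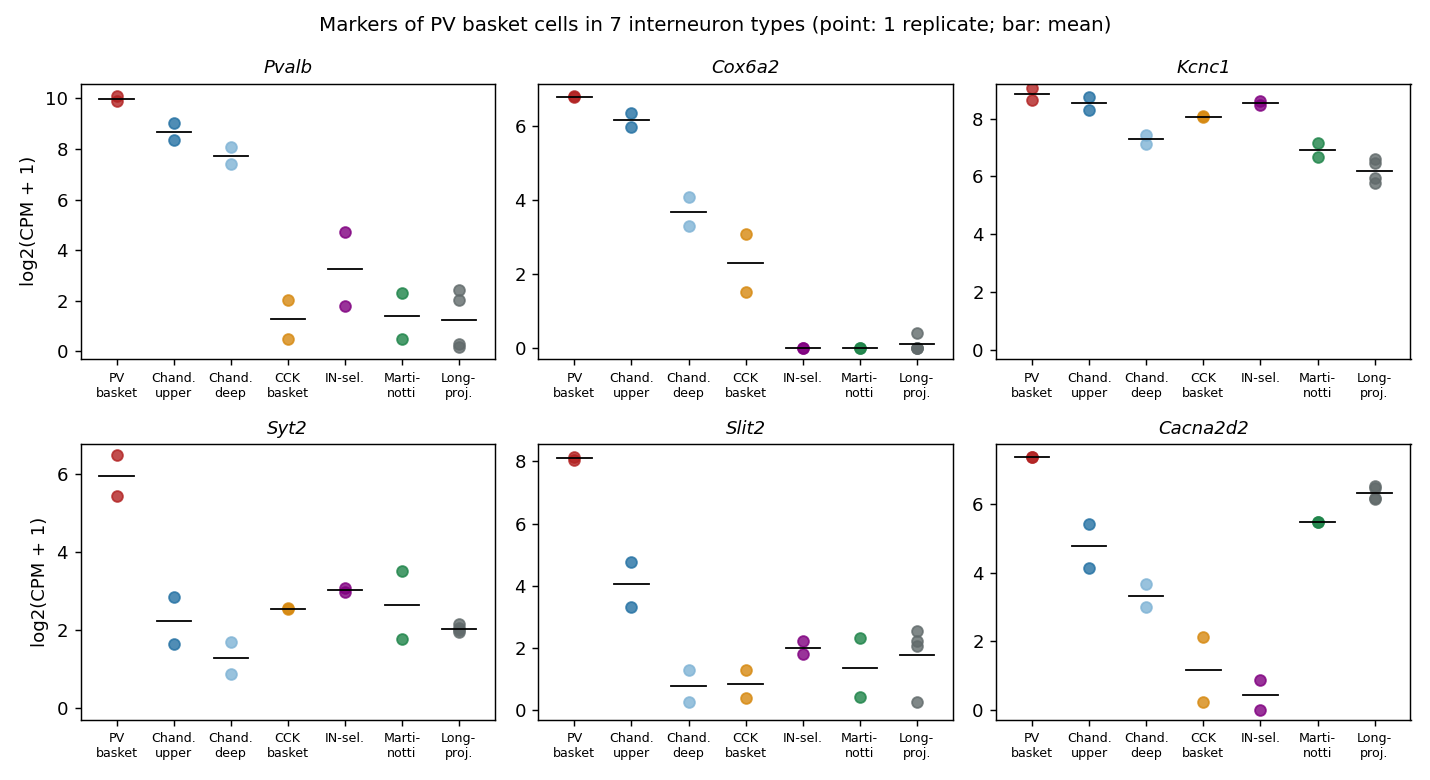
Levels of the 6 marker genes on a log2(CPM + 1) scale in the 16 replicates, grouped by type, with each point 1 replicate and each bar the mean of a type. Both PV basket replicates lie above all 14 others for Pvalb, Cox6a2, Syt2, Slit2 and Cacna2d2, while 1 upper chandelier replicate at 426 CPM reaches the PV range for Kcnc1.

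Slit2, a secreted guidance protein, was at 284 and 263 CPM in the 2 PV replicates and at 26.4 CPM or less elsewhere, 59.2 times the mean of the other types (log2 difference 6.75 ± 0.63 SE, adjusted p = 0.000138). Cox6a2, a subunit of cytochrome c oxidase best known from muscle, was at 109 and 112 CPM. Its nearest neighbour was the upper chandelier type at 71.6 CPM, and it was at 0 in Martinotti and interneuron-selective cells. Cacna2d2, an accessory subunit of calcium channels, was at 166 CPM in both PV replicates and between 0 and 92.4 CPM in the others. In these 3 genes and Pvalb both PV replicates lay above all others, as they did in 2.77% of all genes.

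Syt2, the fast calcium sensor of synaptic vesicles, differed between the PV replicates, at 88.0 and 41.9 CPM, yet both lay above the highest other replicate at 10.5 CPM. Kcnc1, the Kv3.1 channel, was at 526 and 402 CPM, above 13 of the 14 others. Kcnc1 counts were not all whole, so reads may be shared with another locus and its value is uncertain. With animals 7 and 8 left out, 4 of the 6 calls remained (adjusted p 0.00465 to 0.256), and with animals 9 and 10 left out 5 did (0.00332 to 0.0550). Kcnc1 was lost in both cases and Syt2 in the first.

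The start regions of Pvalb and Slit2 are shown because these are markers with large differences and each holds a TATA-type motif a short way before the start. Both come from RefSeq (GRCm38.p6) and run from 250 bases before to 50 after an annotated start. The authors counted on mm9, so these coordinates belong to RefSeq alone. Pvalb has 2 annotated starts, and the one shown lies at chr15:78206351-78206650 on the minus strand. Slit2 lies at chr5:47982905-47983204 on the plus strand. Capitals mark TATTTAA, 32 bases before the Pvalb start, and TATAAA, 28 bases before the Slit2 start.
Pvalb: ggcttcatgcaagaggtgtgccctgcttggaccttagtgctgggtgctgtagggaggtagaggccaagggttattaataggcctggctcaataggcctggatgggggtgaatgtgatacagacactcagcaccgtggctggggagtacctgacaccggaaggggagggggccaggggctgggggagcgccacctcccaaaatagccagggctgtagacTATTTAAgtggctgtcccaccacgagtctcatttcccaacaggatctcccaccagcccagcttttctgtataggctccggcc
Slit2: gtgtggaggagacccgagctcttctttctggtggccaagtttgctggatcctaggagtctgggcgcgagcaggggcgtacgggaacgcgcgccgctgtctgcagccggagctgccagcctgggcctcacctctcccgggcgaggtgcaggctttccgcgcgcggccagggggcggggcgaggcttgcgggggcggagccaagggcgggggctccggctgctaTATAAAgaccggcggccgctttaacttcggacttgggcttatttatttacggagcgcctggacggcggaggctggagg
Start regions were matched for 5 of the 6 markers (7 regions), and Cox6a2 had none in the table. On both strands, TATAAA was found in 1 of these 7 and in 13.6% of 32851 mouse start regions, and TATTTAA, which does not contain it, in 1 and in 4.51%. AAGGTCA, the core site bound by estrogen-related receptors, was found in 1, that of Syt2, and in 4.72%. CANNTG, the E-box, was found in 3 and in 72.3%. These matches describe letters and not bound sites.

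Against the mean of the other 6 types, 604 genes passed in PV basket cells, 432 higher and 172 lower. The median log2 difference over all genes tested was 0.09. Both PV replicates lay above all 14 others in 431 genes, 2.77% of those tested, and below all of them in 162, 1.04%. DESeq2 called 1055 genes, of which 44.6% were higher, where the edgeR test had 71.5% higher. Leaving out a PV replicate left few calls in all: 68 genes without animals 7 and 8 and 73 without animals 9 and 10. Leaving out either deep chandelier replicate raised the count to 966 and 956, and leaving out long-projecting replicate 1 or 2 lowered it to 378 and 394.

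The 20 named genes with the largest positive differences were chosen by these values, so their separation is given as a description. They included 2 neuropeptide precursors. Tac1, which encodes substance P, was at 904 and 781 CPM, with pools from 443 to 1465. It was at 0 in 7 of the 14 other replicates and reached 695 CPM in 1 deep chandelier replicate while the other deep chandelier replicate was at 0. Cartpt, the precursor of the CART peptides, was at 82.0 and 86.4 CPM and nowhere above 8.18 CPM in other types (60.9 times their mean, adjusted p = 0.000725). Both PV replicates lay above all others for both peptides, although the Tac1 pools at 443 and 566 CPM lay below that 1 deep chandelier replicate.

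Several of the others encode secreted proteins. Prss23, a serine protease, was at 106 and 103 CPM against at most 11.8 CPM elsewhere. Slit3, the relative of Slit2, was at 101 and 112 CPM against 1.95 to 22.2 CPM (3.53 ± 0.43 SE, adjusted p = 0.000541). Nog, the BMP antagonist noggin, was at 113 and 76.4 CPM, with upper chandelier cells next at 39.1 CPM. Cthrc1, a secreted collagen-repeat protein, was at 71.6 and 48.9 CPM, and Nxph2, a neurexin ligand of the neurexophilin family, at 48.2 and 71.2 CPM. For both, long-projecting cells came next, at 33.4 and 27.5 CPM.

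Among intracellular and membrane proteins, Iqgap2, a scaffold of the actin cytoskeleton, was at 249 and 254 CPM with pools between 171 and 325, and at 106 CPM or less elsewhere (3.61 ± 0.36 SE, adjusted p = 0.000138). St6galnac5, a sialyltransferase, was at 185 and 138 CPM against at most 42.2. Itgad, an integrin alpha subunit, was at 42.2 and 65.9 CPM. Ptgs1, cyclooxygenase 1, was at 52.8 and 49.2 CPM, and Eif5a2, a translation factor, at 67.4 and 53.7 CPM. Moxd1, a monooxygenase, was at 111 and 71.1 CPM, and here 1 upper chandelier replicate at 91.2 CPM fell between the PV replicates. Etv1, an ETS transcription factor whose counts were not all whole, varied from 0.727 to 119 CPM over pools. Of the 20 calls, 8 remained without animals 7 and 8 and 11 without animals 9 and 10, with 8 in both cases, namely Cox6a2, Slit2, Cartpt, Pvalb, Cacna2d2, Nxph2, Iqgap2 and Slit3. Nog, St6galnac5 and Etv1 were also lost in some of the fits that left out 1 of 11 other replicates or 4 pools (adjusted p 0.05005 to 0.103). Prss23 and Nog did not pass with DESeq2 (adjusted p = 0.345 and 0.200), Nog and Etv1 did not with its size factors in edgeR (0.0564 and 0.0537), and Tac1 did not with no filter on low counts (0.0843).

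**Figure D2:**
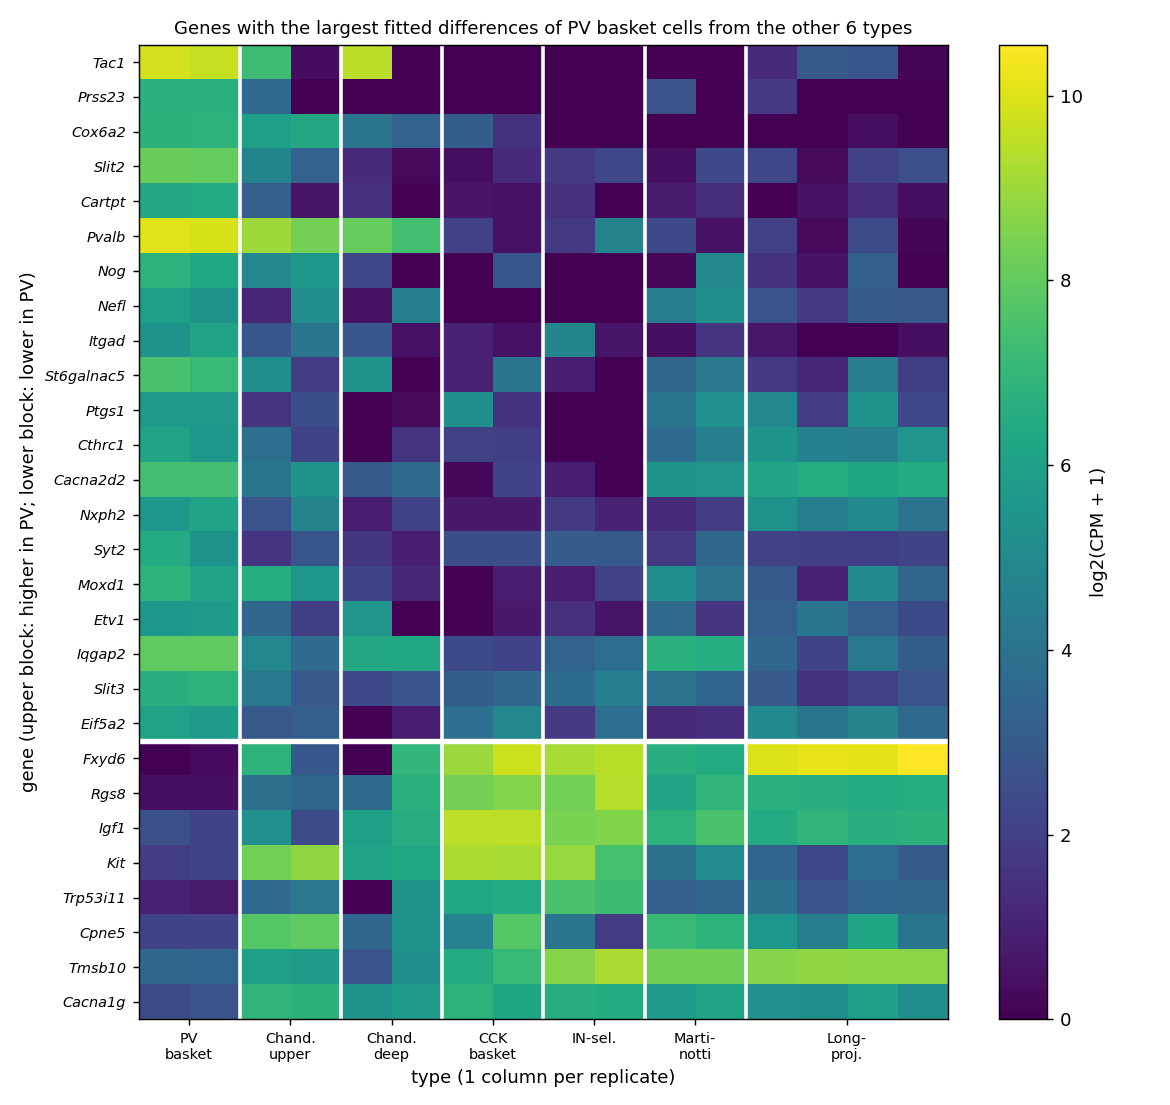
Levels on a log2(CPM + 1) colour scale of the 20 named genes that were higher (upper block) and the 8 that were lower (lower block) in PV basket cells, with 1 column per replicate, in groups by type. The 2 PV columns are alike in the upper block, while Tac1 is high in 1 of the 2 deep chandelier replicates as well.

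The 8 named genes with the largest negative differences were chosen in the same way. Rgs8, a regulator of G protein signalling, was at 0.325 and 0.354 CPM in PV basket cells against 10.9 to 662 CPM in the others (-8.16 ± 0.90 SE, adjusted p = 0.000255). Kit, a receptor tyrosine kinase, was at 2.76 and 3.54 CPM against 3.69 to 617 CPM. Cacna1g, a low-threshold T-type calcium channel, was at 4.54 and 5.66 CPM against 35.9 to 119 CPM. In these 3 genes no replicate of another type reached down to the PV replicates, although the lowest Kit level elsewhere, 3.69 CPM, came close, and their calls remained without either PV replicate.

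Fxyd6, a regulator of the sodium pump, had 0 and 0.236 CPM, at or near the floor, while the median of the others was 539 CPM. The growth factor Igf1, whose counts were not all whole, was at 5.11 and 3.30 CPM against a median of 111. Tmsb10, an actin-binding thymosin, was at 10.5 and 9.67 CPM against a median of 307. Cpne5, a calcium-dependent membrane-binding copine, was at 3.49 and 3.42 CPM and Trp53i11 at 0.974 and 0.708 CPM. For Fxyd6, Igf1, Cpne5, Tmsb10 and Trp53i11, 1 replicate of another type was as low as a PV replicate or lower. The calls of Fxyd6, Tmsb10, Cpne5 and Trp53i11 were lost without either PV replicate (adjusted p 0.0514 to 0.357), and that of Igf1 without animals 9 and 10 (0.0548). Those of Fxyd6, Cpne5 and Trp53i11 were also lost in some of the fits that left out 1 of 10 other replicates or 1 pool (adjusted p 0.0514 to 1).

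Kv3 and Kv1 potassium channels, which end the spike quickly and hold the axon below threshold, were higher in PV basket cells as far as they were called. Of 12 members tested, 7 rose and 0 fell, where 2.78% and 1.11% of all genes did, with a median log2 difference of 1.65. With size factors of DESeq2 in place of TMM 6 rose. Kcnc2, the Kv3.2 subunit, was at 1281 and 1401 CPM, above all 14 others, which reached 618 (2.11 ± 0.29 SE, adjusted p = 0.00107). Kcna2, a Kv1 subunit of axons, was at 614 and 641 CPM against 47.3 to 395, and its partner Kcna1 at 407 and 316 CPM against 8.31 to 131. Kcnab3, an auxiliary beta subunit, was at 406 and 333 CPM against at most 206. In these 4 genes, taken from those that passed the test, both PV replicates lay above all 14 others, as they did in 2.77% of all genes.

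Kcna6 was at 336 and 346 CPM, below the Martinotti mean of 437 CPM, and Kcna5 at only 6.73 and 2.24 CPM, below the long-projecting mean of 18.7 CPM. Both passed against the average of the types on the log scale. The calls of Kcnc2 and Kcna2 remained without either PV replicate, and those of Kcna5 and Kcna6 were also lost in some of the fits that left out 1 of 10 other replicates or 4 pools (adjusted p 0.0511 to 0.112).

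Among 52 other potassium channel genes, 9 rose and 3 fell, where 2.78% and 1.11% of all genes did, with a median of 0.23. None of these 12 calls remained when a PV replicate was left out (adjusted p 0.0947 to 0.477), and 8 of them, Kcnb2, Dpp10, Kcnh2, Kcnh7, Kcnma1, Kcnj3, Kcnj4 and Kcnj9, were also lost in some fits without 1 of 11 other replicates or 7 pools (0.0501 to 0.0877). Inward rectifiers, which steady the resting potential, were among those that rose. Kcnj4 was at 43.9 and 43.2 CPM, with pools from 36.6 to 50.9, above all others, which reached 26.4. The G protein-gated subunits Kcnj9, at 55.3 and 51.5 CPM, and Kcnj3, at 106 and 138 CPM, were each above 13 of the 14 others.

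Electrically silent subunits, which join Kv2 channels, were at low levels. Kcns1 was at 3.08 and 5.07 CPM against at most 0.389, and Kcng4 at 6.17 and 4.25 CPM against at most 5.08. Kcnip2, a calcium-binding partner of Kv4 channels, was at 14.0 and 19.0 CPM. The erg channels Kcnh2 (31.1 and 36.0 CPM) and Kcnh7 (324 and 325 CPM, below deep chandelier cells at 510.5) and the large-conductance calcium-activated channel Kcnma1 (469 and 399 CPM, counts not all whole) rose too.

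On the lower side stood genes of A-type current and 1 delayed rectifier. Kcnd3, the Kv4.3 channel, was at 15.9 and 22.4 CPM against 66.5 to 325 CPM (-3.20 ± 0.56 SE, adjusted p = 0.00609), with no overlap, although its counts were not all whole. Dpp10, an auxiliary subunit of Kv4 channels, was at 167 and 126 CPM against a median of 289.5. Kcnb2, the Kv2.2 channel, was at 84.5 and 116 CPM against 119 to 597.

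Sodium channels were both higher and lower. Of 16 sodium and HCN channel genes, 3 rose and 2 fell, where 2.78% and 1.11% of all genes did, with a median of 0.45. Scn4b, a beta subunit linked to resurgent current, was at 28.6 and 19.8 CPM, and no other replicate was above 0.632 CPM (adjusted p = 0.000769). Scn8a, the Nav1.6 pore, was at 441 and 433 CPM against at most 309, with counts not all whole. Scn2a1, the Nav1.2 pore, was lower at 67.0 and 102 CPM against 188 to 518 (-1.88 ± 0.24 SE, adjusted p = 0.000699), and Scn3b at 13.4 and 10.4 CPM against 19.8 to 279.7. In these 4 genes, taken from those that passed the test, the PV replicates lay on 1 side of all others. Over all genes they lay above all others in 2.77% and below them in 1.04%. The calls of Scn4b and Scn2a1 remained without either PV replicate, while those of Scn8a and Scn3b were also lost in some fits without 1 of 10 other replicates or 3 pools (0.0508 to 0.0756).

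Of 16 voltage-gated calcium channel genes, Cacna2d2 rose and Cacna1g, Cacna1e and Cacna2d3 fell, where 2.78% and 1.11% of all genes did. The list median was -0.71. Cacna2d3, an accessory subunit of the same family as Cacna2d2, was at 28.9 and 32.5 CPM in PV basket cells against 139.8 to 729 CPM (-3.64 ± 0.36 SE, adjusted p = 0.000138). The 2 accessory subunits thus stood on opposite sides, each with no overlap. Cacna1e, the R-type pore, was at 4.06 and 7.67 CPM against a median of 62.6, and its call was lost without either PV replicate (adjusted p 0.164 and 0.0658).

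**Figure D3:**
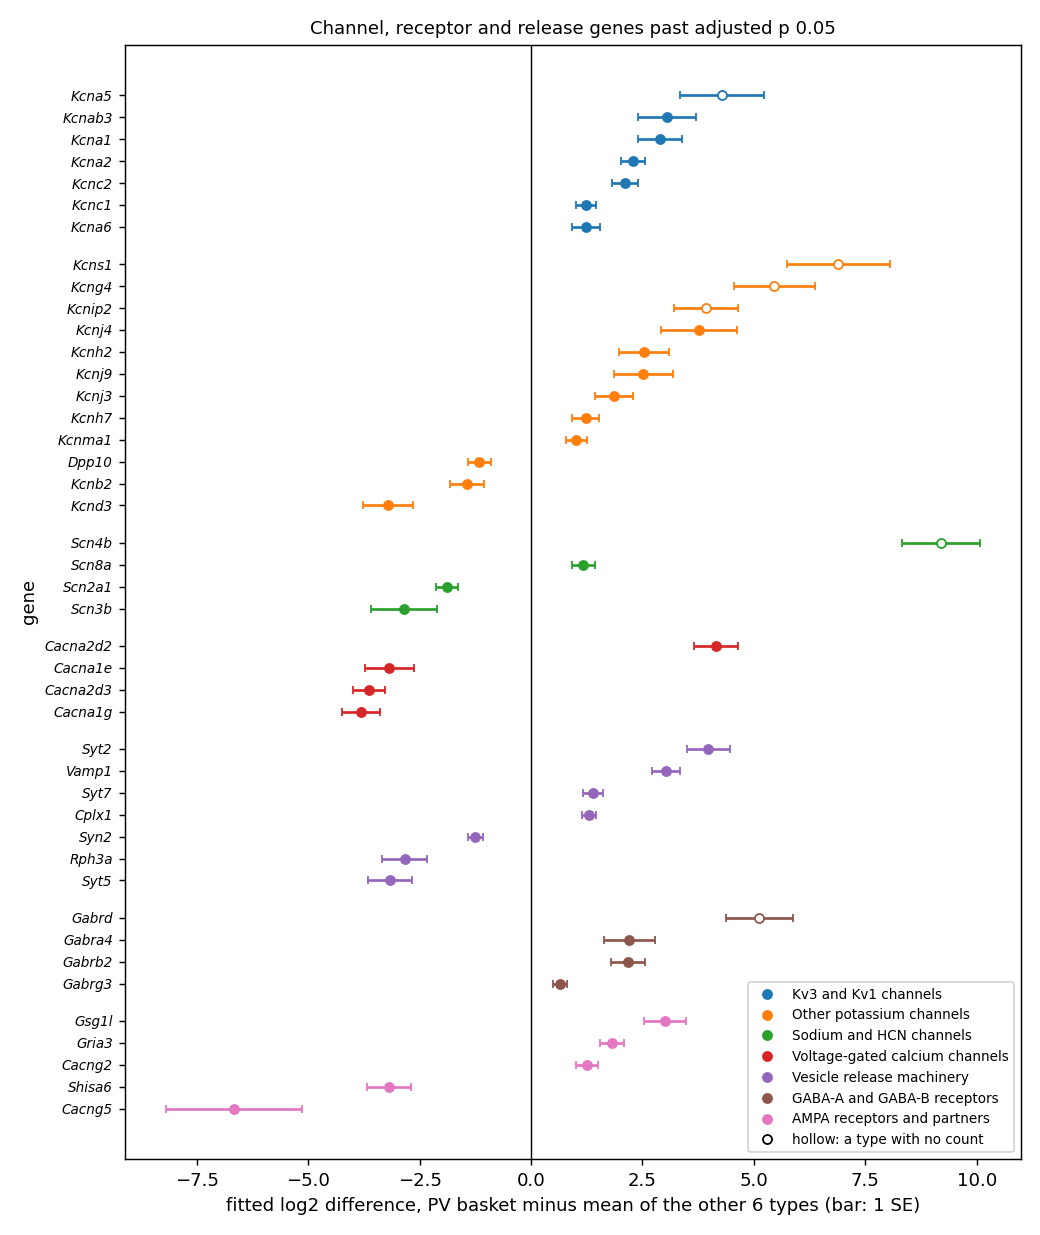
Fitted log2 differences of PV basket cells from the mean of the other 6 types (x axis, bars 1 SE) for the reported called members of 7 lists, coloured by list. Hollow points are genes with no count in at least 1 type, whose fitted size depends on the small count added in the fit, and the Kv3 and Kv1 members all lie to the right of 0.

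Vesicle release genes showed 4 rises and 3 falls among 54 tested, where 2.78% and 1.11% of all genes rose and fell. The list median was -0.07. With size factors of DESeq2 in place of TMM the split was 4 and 4, and DESeq2 itself called 4 higher and 7 lower. Besides Syt2, Vamp1, a vesicle SNARE, was at 331 and 233 CPM against 15.6 to 90.9 (3.03 ± 0.32 SE, adjusted p = 0.000217). Cplx1, which clamps and speeds fusion, was at 1749 and 1887 CPM against 319.9 to 1347. Syt7, a slower calcium sensor, was at 394 and 351 CPM against 50.4 to 331. All 4, taken from genes that passed the test, were higher in both PV replicates than anywhere else, as were 2.77% of all genes.

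The release genes that fell were Syn2, Rph3a and Syt5. Syn2, a synapsin on the vesicle surface, was at 418 and 395 CPM against 631 to 1907, with counts not all whole. Rph3a, a Rab3 effector, was at 9.41 and 10.1 CPM against 26.9 to 110.5. Syt5 was at 3.41 and 2.36 CPM against a median of 49.0. Without animals 7 and 8 the calls of Syt2, Syt7, Rph3a and Syt5 were lost, and without animals 9 and 10 those of Syn2, Syt7, Rph3a and Syt5.

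Of 7 genes for making and moving GABA (median 0.48), only Slc32a1, the vesicular GABA transporter, passed, where 3.89% of all genes did. It was at 2574 and 2403 CPM against 568 to 1952 (1.03 ± 0.14 SE, adjusted p = 0.00116), and lost its call without animals 7 and 8 (adjusted p = 0.0778). The synthetic enzyme Gad1 was at 1625 and 1629 CPM and Gad2 at 634 and 508 CPM, inside the range of the other types (adjusted p = 0.266 and 0.774).

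Of 14 GABA-A and GABA-B receptor genes tested, 5 rose and 0 fell, where 2.78% and 1.11% of all genes did. The list median was 0.94, and 3 rose with size factors of DESeq2. All 5 were among the 12 GABA-A subunits, whose median was 1.04. Gabrb2, a beta subunit, was at 601 and 651 CPM, above 12 of the 14 others, with deep chandelier cells at 789 CPM. Gabrd, the delta subunit of extrasynaptic receptors, was at 152 and 164 CPM, beside 155 and 185 CPM in upper and deep chandelier cells and at most 3.22 CPM in the means of the 4 remaining types. The levels of Gabrd in PV basket and chandelier cells were thus close. Gabra4 (171 and 125 CPM) and Gabrg3 (645 and 651 CPM) passed narrowly, and lost the call in some fits without 1 of 10 other replicates or 4 pools (0.0501 to 0.0878). Without a PV replicate, Gabrd was the 1 call of the 5 that remained.

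Glutamate receptor genes were mixed. Of 16 AMPA receptor genes and partners 3 rose and 2 fell, where 2.78% and 1.11% of all genes did. The list median was -0.09, and 3 rose and 3 fell under size factors of DESeq2. Gria3, an AMPA subunit, was at 437 and 416 CPM, close to the Martinotti mean of 400.5 and well above CCK basket cells at 38.7 CPM (1.81 ± 0.27 SE, adjusted p = 0.00209). The auxiliary subunits Cacng2 (318 and 347 CPM) and Gsg1l (45.9 and 44.5 CPM) rose, and Shisa6 (8.60 and 12.9 CPM against a median of 135) and Cacng5 (0.0811 and 0.354 CPM against a median of 60.2, counts not all whole) fell. Of 14 NMDA and kainate genes (median -0.43), Grin2c alone rose, at 6.33 and 17.8 CPM against at most 5.84, and pools ran from 0 to 43.8. None of these 6 calls remained without a PV replicate (adjusted p 0.0519 to 0.322), and that of Cacng5 was also lost without deep chandelier replicate 2 or upper chandelier replicate 1 (adjusted p = 1).

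Among 17 calcium-binding protein genes (median 0.46) Pvalb and Calm3, 1 of the calmodulin genes, rose, where 2.78% of all genes did. Calm3 was at 1967 and 1672 CPM against 642 to 1286 (1.00 ± 0.18 SE, adjusted p = 0.00637), and the call was lost without animals 7 and 8 (adjusted p = 0.236) or 9 and 10 (0.0637). Calb1, calbindin, was at 182 and 257 CPM with pools from 69.8 to 569, and did not pass (adjusted p = 0.354).

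Genes of oxidative phosphorylation were higher in PV basket cells in every called case. Of 81 subunit genes tested, 14 rose, where 2.78% of all genes did, and 0 fell, with a median log2 difference of 0.56 against 0.09 over all genes. With size factors of DESeq2 11 rose, and DESeq2 itself called 16. Summed over the 82 listed genes, the 2 PV replicates were at 37661 and 40062 CPM, the upper chandelier replicates at 33019.5 and 33637, and all others between 19409.7 and 33109.8. Both PV replicates lay above all 14 others in 26 of these genes, and in 2.77% of all genes.

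The 14 came from several complexes. In complex I, Ndufa6 was at 662 and 645 CPM against 162 to 481, and Ndufb3 at 654 and 448 against 79.5 to 386. In complex III, Uqcrh (999 and 1142 CPM), Uqcrb (558 and 495) and Uqcrfs1 (459.6 and 459.8) rose. In complex IV, besides Cox6a2, Cox5a was at 969 and 909.9 CPM against 253 to 791 (1.20 ± 0.16 SE, adjusted p = 0.000972), and Cox7b, Cox7c and Cox6c rose by 1.18, 1.20 and 1.25 on the log2 scale. Cox8b, like Cox6a2 an isoform known from muscle, was at 5.03 and 3.54 CPM and at 0 in all 14 other replicates. In the ATP synthase, Atp5g3 was at 2359.9 and 2269.7 CPM against 674 to 1681, and Atp5c1 and Atp5l rose by 0.99 and 1.16.

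Few of these calls held with 1 PV replicate. Without animals 7 and 8 only the call of Cox6a2 remained of the 14, and without animals 9 and 10 those of Cox6a2 and Cox5a (adjusted p 0.00332 to 0.581 over the 2 cases). Those of Ndufb3, Uqcrfs1, Uqcrb, Cox6c, Cox8b and Atp5l were also lost in some fits without 1 of 12 other replicates or 5 pools (0.0501 to 0.0891). Against the upper chandelier type 0 of the 81 passed, where 0.399% of all genes did.

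Of 26 genes for energy supply, 4 rose and 1 fell, where 2.78% and 1.11% of all genes did, with a median of 0.66. Ppargc1a, the coactivator PGC-1 alpha that drives mitochondrial genes, was at 324 and 304 CPM against 15.0 to 162 (2.09 ± 0.34 SE, adjusted p = 0.00394). Esrrg, an estrogen-related receptor that works with it, was at 196 and 205 CPM against at most 98.8, with counts not all whole. The citric acid cycle genes Mdh2 (1053 and 1057 CPM) and Sucla2 (227 and 255) rose, and Ldha, a lactate dehydrogenase subunit, fell at 21.6 and 33.8 CPM against 49.7 to 307. None of the 5 calls remained without a PV replicate (adjusted p 0.0659 to 0.448), and that of Sucla2 was also lost in some fits without 1 of 9 other replicates or 4 pools (0.0501 to 0.0981).

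Of 6 sodium pump genes 2 rose and 1 fell, where 2.78% and 1.11% of all genes did, with a median of 0.12. None of these calls held in both fits that left out a PV replicate. Atp1b1, a beta subunit, was at 1574 and 1418 CPM, close to upper chandelier cells at 1359.8 and above the rest (0.85 ± 0.13 SE, adjusted p = 0.00199; without animals 7 and 8, 0.146). Atp1b2, a beta subunit common in glia, fell at 3.25 and 6.96 CPM against a median of 31.2, and was lost without either PV replicate (adjusted p = 0.482 and 0.231) and in some fits without 1 of 10 other replicates or 2 pools (0.0513 to 0.0802).

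Neurofilaments fill thick axons, and 3 of their 4 genes rose. Of 11 genes of neurofilaments and the axon cytoskeleton tested, 4 rose and 0 fell, where 2.78% and 1.11% of all genes did. The list median was 0.86, and 3 rose with size factors of DESeq2. Nefh, the heavy chain, was at 253 and 169 CPM against 9.31 to 101 (2.67 ± 0.30 SE, adjusted p = 0.000304). Nefl, the light chain, was at 61.7 and 42.3 CPM against at most 37.9. Nefm, the medium chain, was at 109.9 and 41.0 CPM, and 1 Martinotti replicate at 148 CPM lay above both. Ank1, an ankyrin, was at 180.1 and 137 CPM beside 170.5 in upper chandelier cells, with counts not all whole. The call of Nefh remained without either PV replicate, that of Nefm was lost without animals 7 and 8 (adjusted p = 0.0613), and those of Nefl and Ank1 were lost without either (0.0959 to 0.532). Ank1 was also lost in some fits without 1 of 7 other replicates or 1 pool (0.0528 to 0.0746).

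Of 27 perineuronal net genes tested, 3 rose and 1 fell, where 2.78% and 1.11% of all genes did, with a median of 0.37. Hapln4, a link protein that ties hyaluronan to proteoglycans, was at 117 and 109 CPM with pools from 97.1 to 142, and the other replicates ranged from 0.867 to 115. The proteoglycans Acan (6.90 and 5.66 CPM, against at most 4.54) and Bcan (22.6 and 27.0 CPM, beside 27.5 in upper chandelier cells, counts not all whole) rose at low levels. Timp2, an inhibitor of metalloproteases, fell at 129 and 119.7 CPM against a median of 420.0. None of these calls remained without a PV replicate (adjusted p 0.0902 to 0.283), and that of Hapln4 was also lost in some fits without 1 of 7 other replicates (0.0505 to 0.0673).

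Of 27 interneuron transcription factors, 5 rose and 1 fell, where 2.78% and 1.11% of all genes did. The list median was 0.67, and 3 rose with size factors of DESeq2. Several of them were higher still in another type. Lhx6, a factor of the medial ganglionic eminence, passed higher (adjusted p = 0.000718) and was at 0 in both CCK basket and interneuron-selective cells. Its PV level of 81.5 and 96.2 CPM lay below the chandelier means of 221 and 248 CPM, and its counts were not all whole. Tox3 was likewise at 116 and 92.7 CPM beside 178 and 320.5 in chandelier cells, and Mef2c at 1177 and 1151 CPM beside 1759 and 2381. Sox6, which acts after Lhx6, was at 231 and 275 CPM, below long-projecting cells at 479, and its counts were not all whole. Npas1, a factor of other interneurons, was lower at 3.08 and 2.71 CPM against a median of 22.2. Only the calls of Lhx6 and Tox3 remained without either PV replicate, and those of Sox6, Mef2c and Etv1 were also lost in some fits without 1 of 13 other replicates or 4 pools (0.0522 to 0.0977).

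Among 40 genes for ErbB4 signalling and synapse organisation, 6 rose and 4 fell, where 2.78% and 1.11% of all genes did. The list median was 0.24. Gphn, the gephyrin scaffold of inhibitory synapses, was at 2329 and 2482 CPM against at most 1872 (2.36 ± 0.31 SE, adjusted p = 0.000936), but single pools ran from 261 to 6442 CPM. Cntnap4, a neurexin relative at interneuron terminals, was at 313 and 343 CPM against at most 191. Erbb4, the neuregulin receptor of fast-spiking cells, was at 2247 and 2262 CPM, between the CCK basket mean of 2515 and the interneuron-selective mean of 1775, with 43.0 and 77.9 CPM in the 2 Sst types and more than in PV basket cells in both chandelier types. Nxph1 was at 548 and 481 CPM, inside the range of the types with Lhx6. Slitrk2 (45.0 and 25.8 CPM) rose as well, and Nxph2 was given above.

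The neurexins Nrxn2 and Nrxn3, presynaptic partners of many organisers, fell. Nrxn2 was at 212 and 256 CPM and Nrxn3, with counts not all whole, at 1347 and 1250.2. Elfn1, a postsynaptic organiser of facilitating inputs to Sst cells, was at 26.5 and 30.1 CPM against 36.2 to 829 (-3.20 ± 0.47 SE, adjusted p = 0.00191). Gphn and Nxph2 were the 2 of these 10 calls that remained without either PV replicate. Those of Nrxn3 and Slitrk2 were also lost in some fits without 1 of 4 other replicates or 1 pool (0.0541 to 0.0889).

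Of 14 genes for Slit, Robo and netrin signalling, Slit2 and Slit3 rose and 0 fell, where 2.78% and 1.11% of all genes did. The median of the list was 0.01, and -0.07 with size factors of DESeq2. Of 25 cadherins 2 rose and 1 fell, where 2.78% and 1.11% of all genes did, with a median of -0.06. Cdh18 was at 175 and 143 CPM, Cdh7 at 68.1 and 62.9 CPM but at 161 in Martinotti cells, and Pcdh8 fell at 27.3 and 35.4 CPM against 47.3 to 671 (-3.29 ± 0.51 SE, adjusted p = 0.00269). These 3 calls were lost without either PV replicate (adjusted p 0.0638 to 0.308).

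The list of neuropeptides does not hold Cartpt. Of 19 genes tested from it (median -0.30), Tac1 rose and Npy and Igf1 fell, where 2.78% and 1.11% of all genes did. Npy was at 86.6 and 68.4 CPM, beside 87.1 and 88.6 in chandelier cells and 18772 CPM in long-projecting cells. Cck was at 199 and 253 CPM in PV basket cells and did not pass (adjusted p = 0.826). Of 19 peptide receptors (median -1.13), Cckbr, the CCK receptor of PV cells, rose, at 19.0 and 19.2 CPM against at most 4.42. Oprm1, the mu opioid receptor, fell, at 8.60 and 7.55 CPM against 11.5 to 351. The calls of Tac1, Npy, Cckbr and Oprm1 were lost without either PV replicate and that of Igf1 without animals 9 and 10 (adjusted p = 0.0548), and that of Oprm1 was also lost without upper chandelier replicate 2 or long-projecting replicate 1 (0.0501 and 0.0505).

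Of the markers of other types given here, Vip, Sst and Nos1 were low in PV basket cells, whereas Cck, Npy and the chandelier list were not. The 7 CCK basket markers summed to 306 and 382 CPM, mostly Cck, and the 6 interneuron-selective markers to 41.4 and 46.9 CPM, with Vip at 0 and 0.236 CPM. Of the Martinotti and long-projecting markers, Sst was at 1.38 and 1.77 CPM and Nos1 at 0.325 and 1.89 CPM. Npy, on the long-projecting list, ran from 9.42 to 142 CPM over the PV pools. Elfn1, on the Martinotti list, ran from 15.5 to 48.0 CPM. The other members of these lists are not reported here. The 6 chandelier markers summed to 839.5 and 890.3 CPM against 1465 and 1733 CPM in upper chandelier cells, with Nkx2-1 at 17.4 and 23.7 CPM. That list also holds Cartpt and Nog, which were higher in PV basket than in chandelier cells, and Pthlh, which was lower than in upper chandelier cells. Adarb2, a marker of the 2 Vip types, fell at 26.9 and 42.7 CPM (-3.79 ± 0.56 SE, adjusted p = 0.00192).

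Immediate early genes respond to activity within minutes. The 14 listed genes summed to 282 and 294 CPM in PV basket cells, to 2054 and 4719.8 in upper chandelier cells, and to between 253 and 1865 elsewhere. Across all genes tested, 1.11% fell against the other types. Egr1 alone fell among 13 tested (median -0.93), at 17.0 and 24.3 CPM against 20.8 to 1089.5, and its call was lost without a PV replicate, and in some fits without 1 of 8 other replicates or 4 pools (0.0505 to 0.0685).

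Of the 4 comparisons, that with upper chandelier cells had the fewest calls and that with deep chandelier cells the most. Why the counts differ was not tested. With upper chandelier cells 62 genes passed, 0.399% of those tested, with 21 higher (0.135%) and 41 lower (0.264%) in PV basket cells. DESeq2 called 404. None of the 6 markers passed, although Slit2 was at 284 and 263 CPM against 26.4 and 9.07 (adjusted p = 0.218) and Syt2 at 88.0 and 41.9 CPM against 2.12 and 6.14 (adjusted p = 0.0886). DESeq2 called 3 of the 6. Of the 12 Kv3 and Kv1 genes 0 passed, with a median of 1.42. Oxidative phosphorylation genes had 0 calls in either direction, with a median log2 difference of 0.24.

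By the rule of size, 6 genes higher in PV basket cells than in upper chandelier cells are named. Rasgrf2, an exchange factor for Ras, was at 367 and 377 CPM against 58.5 and 17.9 (3.35 ± 0.58 SE, adjusted p = 0.0235). Slc24a2, a potassium-dependent sodium-calcium exchanger, was at 1258 and 991 CPM against 235 and 61.7. Iqgap2 (3.69), Lypd6b (5.08), Tmem14c (3.47) and Etl4 (2.85, counts not all whole) were the other named genes, with their log2 differences. All 6 lost the call without either PV replicate (adjusted p 0.171 to 0.425). Among listed genes, Rab3c, Slc32a1, Calm3, Nefh and Cacnb4 rose, the last with counts not all whole, by 1.72, 1.03, 1.37, 2.77 and 1.48 on the log2 scale.

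Lower in PV basket cells than in upper chandelier cells were Kit, at 2.76 and 3.54 CPM against 313 and 448 (-6.85 ± 0.66 SE, adjusted p = 0.000776), Cacna1g (-4.41 ± 0.47 SE) and Cacna2d3 (-3.78 ± 0.40 SE). These 3 calls remained without either PV replicate. Pthlh, a hormone-like peptide of chandelier cells, was at 27.2 and 5.90 CPM against 488 and 670.5. Hs3st4, a heparan sulfate sulfotransferase, was at 9.33 and 8.37 CPM against 212 and 455. Cpne5, Egr1, Kcnd2, Kcnd3, Syn2, Rph3a, Elfn1, Pcdh8 and Adarb2 fell as well, with log2 differences between -1.07 (Syn2) and -6.02 (Cpne5), and with Kcnd3 and Syn2 counts not all whole.

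The calls against upper chandelier cells rested on few samples. They also depended on replicates of the other types, because the fit estimates the spread over all types. Without animals 7 and 8, 9 genes passed and without animals 9 and 10, 7 did. Without upper chandelier replicate 1 or 2 the count was 25 and 12. It was between 23 and 36 without a long-projecting replicate and 121 and 129 without a deep chandelier replicate. Of the 25 genes reported here, 3 kept their call without either PV replicate and 3 without each of the other replicates in turn.

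**Figure D4:**
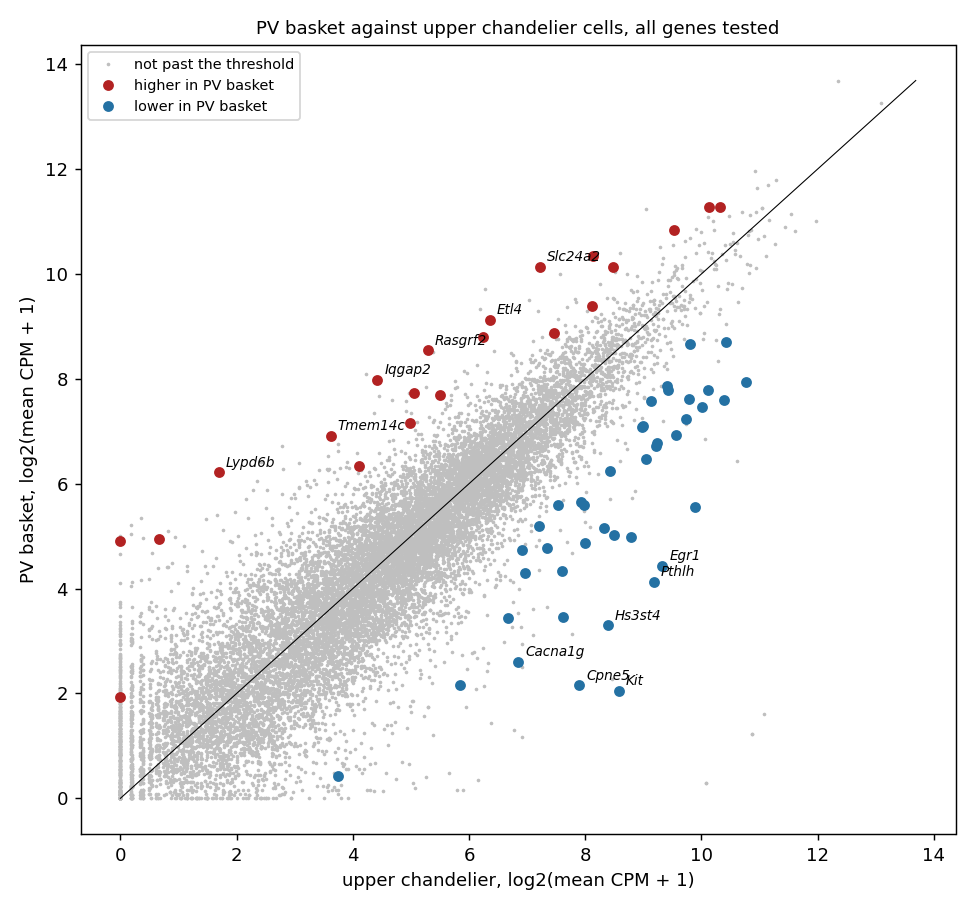
Mean level of every tested gene in PV basket cells (y axis) against upper chandelier cells (x axis), both as log2(mean CPM + 1), with the 21 higher and 41 lower genes coloured and the named genes labelled. Most genes lie along the line of equal levels, with Kit, Cpne5 and Cacna1g far below it and Lypd6b above it.

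Against deep chandelier cells 1069 genes passed, 6.88% of those tested, with 586 higher (3.77%) and 483 lower (3.11%). Size factors of DESeq2 turned the split to 528 higher and 654 lower and moved the median log2 difference of all genes from 0.10 to -0.01. DESeq2 called 2714. The deep chandelier replicates differed from each other, for example in Tac1 at 695 and 0 CPM and in Fxyd6 at 0 and 126. Without replicate 2 of that type 1797 genes passed, without replicate 1 953, without long-projecting replicate 2 707, and without a PV replicate 164 and 150.

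Of the 6 markers, Kcnc1, Syt2, Slit2 and Cacna2d2 rose against deep chandelier cells, whereas Pvalb (adjusted p = 0.244) and Cox6a2 (adjusted p = 0.071) did not pass. Of these 4 calls 1 remained without animals 7 and 8 and 2 without animals 9 and 10. Among the 12 Kv3 and Kv1 genes 3 rose, Kcnc1, Kcna2 and Kcna6, where 3.77% of all genes did. Kcna2 was at 614 and 641 CPM against 47.3 and 98.0 (2.89 ± 0.46 SE, adjusted p = 0.0035). Vamp1 rose by 2.71, and Cartpt and Scn4b, at 0.925 and 0 CPM in deep chandelier cells, passed too. Rbp4, a retinol carrier, was at 77.5 and 78.0 CPM against 0.423, and Ptgs1 at 0.106 CPM in the deep type.

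Aldoc, a glycolytic aldolase, was at 72.7 and 101 CPM and Slc30a3, a vesicular zinc transporter, at 99.4 and 83.0 CPM, while both were at 0 in deep chandelier cells. Xist headed the list, and the deep chandelier mice are labelled male. Of the 81 oxidative phosphorylation genes 22 rose and 1, Ndufa8, fell against this type, where 3.77% and 3.11% of all genes did. Their median log2 difference was 0.71. Without animals 7 and 8, 4 of these 23 calls remained and without animals 9 and 10, 6.

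Lower in PV basket cells than in deep chandelier cells were Rgs8 (-7.54 ± 0.92 SE, adjusted p = 0.000474), Rab26, a vesicle Rab, at 0.974 and 0.236 CPM against 110.3, and Fgd5 (68.0 CPM in the deep type). Gdf10, a growth factor of the TGF-beta family, was at 0 and 0.118 CPM against 109, and Mcm6, a replication helicase subunit, at 0.487 and 0.472 against 71.7. Tnnt1, a troponin, was at 0 in both PV replicates and at 73.3 CPM in deep chandelier cells. The calls of Slit2, Kcna2, Aldoc, Rbp4, Xist and Rgs8 were the 6 of the 19 reported ones that remained without either PV replicate.

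Against CCK basket cells, the other type with synapses on cell bodies, 457 genes passed, 2.94% of those tested, with 187 higher (1.2%) and 270 lower (1.74%), and DESeq2 called 1271. Of the 6 markers, 5 rose and Kcnc1 did not pass (adjusted p = 0.301). Of these 5 calls 2 remained without animals 7 and 8 and 3 without animals 9 and 10. Pvalb was at 1.78 CPM in CCK basket cells, Slit2 at 0.889, Cacna2d2 at 1.75 and Syt2 at 4.84. Lhx6 (counts not all whole), Nefl and Nefm were at 0 in CCK basket cells, and Tox3 was at 0.157 CPM.

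Of the 12 Kv3 and Kv1 genes, Kcnc2, Kcna2 and Kcna6 rose against CCK basket cells, where 1.2% of all genes did. Kcna2 rose by 3.09 ± 0.46 SE on the log2 scale (adjusted p = 0.00268) and Kcnc2 by 2.43 ± 0.47 SE (adjusted p = 0.0129). Of the AMPA receptor subunits, Gria3 was at 437 and 416 CPM against 36.2 and 41.2 (3.36 ± 0.45 SE, adjusted p = 0.00137). Gria1 and Gria4, both with counts not all whole, rose by 1.39 and 1.08. Scn4b and Gabrd rose from 0 and 3.22 CPM in CCK basket cells. Of 81 oxidative phosphorylation genes 4 rose and 1 fell against this type, where 1.2% and 1.74% of all genes did.

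By the same rule, 6 genes lower in PV than in CCK basket cells are named, and the listed factor Sp8 beside them. Tac2, a tachykinin precursor with counts not all whole, was at 0 in both PV replicates and at 1112 CPM in CCK basket cells, and Aqp5, a water channel, at 0 and 99.0 CPM. Vip was at 4275 CPM in CCK basket cells, Cxcl14, a chemokine, at 1051 against 0.162 and 1.06, Htr3a, the ionotropic serotonin receptor, at 350.4 against 0.162 and 0, and the factor Sp8 at 129 against 0 and 0.118. Fxyd6 was at 684 CPM. Of the 23 reported calls against CCK basket cells, Pvalb, Cacna2d2, Kcna2, Gria3, Lhx6, Nefm, Tox3 and Tac2 kept theirs without either PV replicate. Tac2 and Aqp5 did not pass with DESeq2 (adjusted p = 0.0685 and 0.202), Aqp5 did not with whole counts only (0.0554), where Tac2 is not tested, and Vip did not with no filter on low counts (0.134). Of the named genes, Vip, Aqp5, Nefl, Syt2 and Cox6a2 were also lost without either CCK basket replicate, and Slit2 without replicate 1. Their differences kept their sign. The count of genes passing was 68 and 93 without a PV replicate, 247 and 239 without CCK basket replicate 1 or 2, 786 and 789 without a deep chandelier replicate, and 289, 293 and 301 without long-projecting replicate 1, 2 or 3. The 4 comparisons share the PV basket replicates and are not independent of one another.

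Levels also varied among the PV basket pools, each a sum of 15 or 16 cells. Cells of 1 library differed by 1.03 to 1.36 times counting noise, and libraries of different pools by 7.70 to 27.4 times. The spread given here is thus one between pools, and its source was not tested. Over 4516 genes with a mean of at least 50 CPM, the median coefficient of variation over the 8 pools was 29.6% (quartiles 22.0% and 39.2%), where counting alone gave 6.37%. Rab3a, a vesicle GTPase, was among the steadiest at 636 to 703 CPM, and Gabrb2 ran from 561 to 678 CPM. Kcnc2 ran from 1135 to 1628 CPM, Pvalb from 809 to 1310.4 and Slit2 from 202 to 422. Etv1 and Gphn differed far more, Etv1 from 0.727 to 119 CPM.

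**Figure D5:**
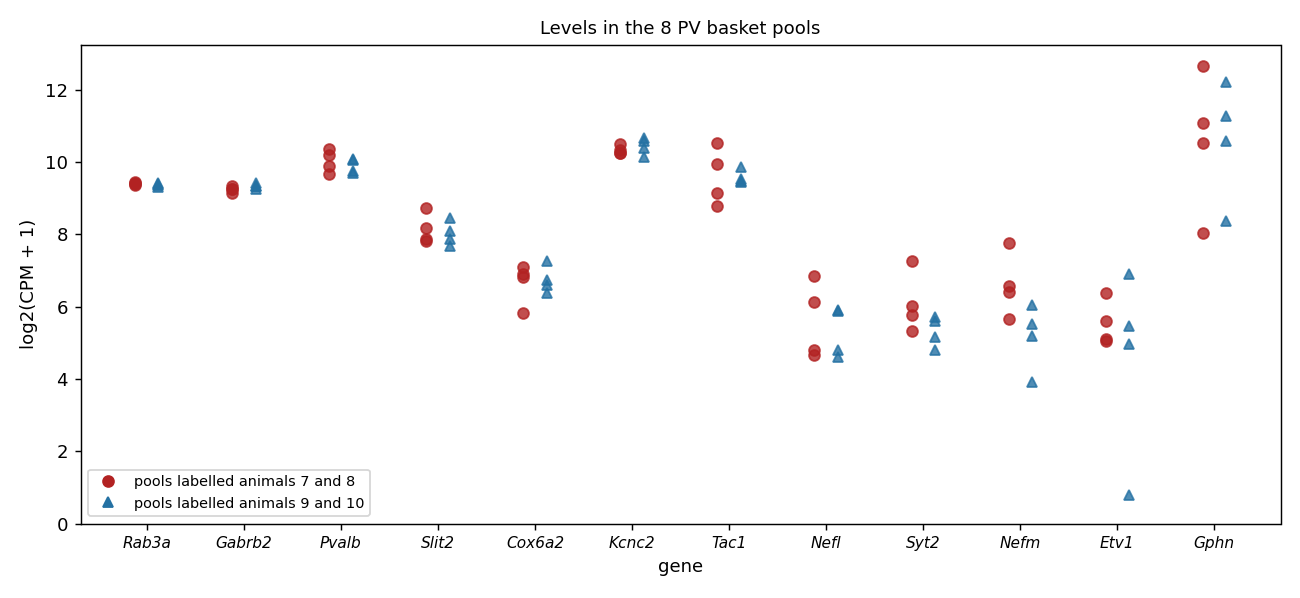
Levels on a log2(CPM + 1) scale of 12 genes in the 8 PV basket pools, with circles for the 4 pools labelled animals 7 and 8 and triangles for the 4 labelled animals 9 and 10. Rab3a and Gabrb2 hardly vary, and Gphn spreads over both replicates.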

How the data were processed

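Single interneurons were sequenced after capture of RNA with primers that carry a cell barcode and a 10-base random tag, per the labels' protocols. No label or header says whether reads that share a tag were collapsed. The authors deposited an expected count (an estimated count that need not be whole) per gene and cell for 23335 genes, and per the submitters' processing notes Bowtie 0.12.7 and the genome build mm9 were used. Of the values above 0, 4.07% were not whole, in 1678 genes, whose counting is uncertain.

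Counts were summed per replicate (16 in all, labelled animals 7 with 8 and 9 with 10 together) and rounded. edgeR 4.0.16 (R 4.3.3, limma 3.58.1) was fitted to all types with TMM scaling, filterByExpr by type and the robust quasi-likelihood test, and p-values were adjusted by Benjamini-Hochberg over all 15533 genes tested. The fit had 9 residual degrees of freedom and a common coefficient of biological variation of 61.7%. CPM is a count per 1000000 counts of the sum, without TMM scaling, and n = 2 PV replicates gives little precision. Depth is given in the report, and intervals or floors cover counting error only. Fitted differences of genes with no count in some type depend on the small count added in the fit, so levels are given for them.

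Named genes had at least 50 CPM in the higher group, passed the test and ranked first by fitted difference, 20 higher and 8 lower against the other types and 6 on each side of a pair. Against the other types, both PV replicates also had to lie beyond every other type's mean, and in a pair the replicates could not overlap. Symbols of predicted or clone genes were passed over. Listed genes that passed, or that have a stated role, were named beside their list. A few listed genes are counted with their lists but not reported here. Other genes come from lists of channels, receptors, metabolism, matrix, factors and cell markers. The members and the lists were chosen with earlier results of these data known. Alternatives were DESeq2 1.42.0, its size factors in edgeR, 2 other filters, other replicate units, equal weight of cells, genes with whole counts only, and each replicate and PV pool left out in turn. Replicate numbers in the titles number libraries and are not known to mark shared animals.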

Additional observations from a re-analysis of the deposited data

Results flagged for a closer look

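In 12 of the genes reported with a test, 1 of the 8 PV basket pools stood apart from the other 7 by more than Dixon's 95% limit. Chance passes this limit in about 1 in 20 groups. Not all of the 146 reported genes were screened, because those with a mean of a few CPM or less over pools were left out. Among those left out, Igf1, Cacng5, Cxcl14, Rab26, Fgd5, Gdf10, Sp8 and Vip also passed it. Over all 4516 genes with a mean of at least 50 CPM, a higher cut than for the reported genes, 8.08% passed that limit.

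The pool of index RPI1 in lanes 1 and 2 was high for Kcnip2 at 43.6 CPM (next 22.4) and Rph3a at 19.6 CPM (next 11.8). The pool of RPI1 in lanes 7 and 8 was low for Kcna1 at 229 CPM (next 344), Nrxn3 at 1017 CPM (next 1276), Nxph1 at 289 CPM (next 476) and Syt7 at 193 CPM (next 355). The pool of RPI4 in lanes 5 and 6 was high for Cox6c at 2430.2 CPM (next 1836), Nefm at 217 CPM (next 94.6), Hs3st4 at 33.4 CPM (next 9.46) and Pthlh at 80.0 CPM (next 14.0). The pool of RPI3 in lanes 3 and 4 was high for Syt2 at 154 CPM (next 64.1) and Slitrk2 at 82.4 CPM (next 39.1). Each pool sums 15 or 16 cells.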

How the results depend on the processing

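The number of genes passing in PV basket cells depended on what counted as a replicate. Against the mean of the other types, upper chandelier, deep chandelier and CCK basket cells in turn, it was 604, 62, 1069 and 457 in the reported fits. DESeq2 gave 1055, 404, 2714 and 1271, the 18 labelled animals 2387, 392, 3126 and 1477, and 8 PV pools beside the other types' libraries 2261, 730, 3330 and 1524. The 46 libraries without a replicate block gave 3998, 1560, 4755 and 2525, and with the library number as a replicate block 1728, 530, 2185 and 1194. That number is not known to pair libraries, so the block has no basis in the design. Leaving out 1 replicate gave 68 to 966, 7 to 129, 150 to 1797 and 68 to 789 genes, and leaving out 1 PV pool 555 to 619, 60 to 69, 1024 to 1097 and 427 to 476. Size factors of DESeq2, both filters, equal weight of cells and whole counts only stayed within 1.5 times of the reported counts. Against the mean of the other types, the share of calls that were higher moved from 71.5% to 44.6% with DESeq2, and to 54.8% and 57.8% with the 46 libraries without and with the block. Against deep chandelier cells it moved from 54.8% to 45.3% with DESeq2, 44.7% with its size factors alone, 47.5% with the 18 labelled animals, 39.7% and 44.9% with the 46 libraries without and with the block and 45.1% with the 8 pools, and to 72.6% and 78.0% without PV replicate 1 or 2. With 2 PV replicates, 23 of the 119 genes reported against the other types kept their call without either one, while 111 kept it with DESeq2 and 106 with its size factors. Against the other types, Grin2c, Mef2c, Nog and Prss23 did not pass with DESeq2 (adjusted p 0.0711 to 0.345), which gave no adjusted p for a further 4 genes. Ank1, Atp5l, Etv1, Gabra4, Gabrg3, Kcna6, Kcnh7, Kcnj9, Mef2c, Nog, Sucla2, Uqcrb and Uqcrfs1 did not with its size factors in edgeR (0.0526 to 0.0783). Atp5l, Cpne5, Egr1, Etv1, Gabrg3, Kcna6, Kcnh2, Ndufb3, Npas1, Scn3b, Sucla2, Uqcrb and Uqcrfs1 did not with equal weight of cells (0.0501 to 0.0817), and Atp5l, Gabrg3, Kcna6, Kcnj9, Mef2c, Nog and Sucla2 did not with the filter at 50 counts (0.0501 to 0.0585). Sucla2 and Tac1 were lost with no filter (0.0593 and 0.0843), and Atp1b2, Atp5l, Gabra4, Kcna6, Kcnb2, Kcnj9, Mef2c, Nog, Scn3b and Sucla2 with whole counts only (0.0514 to 0.0559). Against upper chandelier cells, Cpne5, Nefh, Slc32a1 and Tmem14c were lost with equal weight of cells (0.0583 to 0.0788), Syn2 with no filter (0.0528) and Slc32a1 with whole counts only (0.0594). Against CCK basket cells, Gria4 was lost with size factors of DESeq2 (0.0665), Aqp5, Gria4, Nefl, Scn4b and Syt2 with equal weight of cells (0.0612 to 0.0885), and Gria4, Syt2 and Vip with no filter (0.0505 to 0.134).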
